A study of Homo sapiens with 10 samples.

Results

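EU-only sites are the m6A peaks that were called in the EU 40min library and in no other library or condition list of the study. They were chosen from the peak list of the EU 40min library: every exon block of such a peak shared no base, on the same chromosome and strand, with any peak of the other 6 lists. Of 5044 EU peaks, 2532 met this rule (50.2%), out of 26273 peaks in all 7 lists. They lay in 1503 of the 2389 genes named in the EU list (62.9%). The 1570 sites in genes that no other list names (62.0%, exact binomial 95% interval 60.1 to 63.9) covered 879 genes, which is 36.8% of the genes of the EU list. The other 962 sites (38%) lay in 624 genes that another list names at another place. These counts follow from the rule and are a description, not a tested result.

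The study profiled V16A, a castration-resistant prostate cancer cell line, by MeRIP-seq, in which RNA fragments pulled down with an antibody against m6A are sequenced beside an input. It holds 10 samples of this 1 line, all total RNA labelled as prostate cancer cells: Hypoxia MeRIP replicates 1 and 2, Normoxia MeRIP replicates 1 and 2, EU 40min MeRIP and the 5 matching inputs. EU is read here as ethynyl uridine, a nucleoside that cells build into newly made RNA; the labels do not spell it out. They state neither the oxygen under which EU cells grew nor an oxygen level or time for the others, and name no genetic change in any group. Since no label calls the replicates separate cultures, p-values across libraries reflect library-to-library spread that may be technical. The EU library was 1 sample without a replicate, so nothing below measures how often the same EU-only site would be called again.

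N6-methyladenosine, or m6A, is a methyl mark that the METTL3 and METTL14 complex places on adenosines of nuclear RNA, often while the transcript is still being made. In mature mRNA the mark is known to be dense near stop codons, in long internal exons and in 3′ untranslated regions. Zinc finger transcription factor transcripts and the short-lived transcripts of immediate early genes are among the RNAs known to carry it. RNA that took up a labelled nucleoside in a short pulse was made within the pulse, and includes precursors and RNAs that decay soon after. The label total RNA does not show whether such RNA was isolated here.

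The files hold coordinates and not sequence, and no genome was used here, so letters can be shown only where an EU-only site meets a RefSeq sequence (GRCh38.p14). The first such place is the site at chr7:151238431-151238728 on the plus strand, in CHPF2, which encodes a chondroitin polymerizing factor. This site covered 108 of the 118 bases of the MIR671 hairpin, at chr7:151238421-151238538, so the peak was called over letters that also encode a microRNA. Its mature products are shown with the seed, bases 2 to 8, in capitals.
hsa-miR-671-5p: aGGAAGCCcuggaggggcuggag
hsa-miR-671-3p: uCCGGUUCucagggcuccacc
The deposited p of the site was 2.1e-06. It lay in the last part of CHPF2, at 0.96 of the gene span, 48 bases 3′ of the nearest peak of another list. CHPF2 had 4 EU peaks, of which 3 were EU-only, 2 peaks in normoxia replicate 2, 3 in the hypoxia condition list and 0 in each of the other 4 lists.

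The second place is the start of genes, where 58 EU-only sites (2.29%) shared a base with a RefSeq window running from 250 bases before to 50 bases after a gene start. Of these, 32 were in genes that no other list names and 26 in the others. In 5 of the 58 the shared part held GGACT, a common form of the sequence in which m6A is placed, on the transcript's strand. The stretches are shown 5′ to 3′ with GGACT in capitals, to let a reader see the letters around it.
TXNDC12: gcgaactgtgtggaccgtctgctgGGACTc
GSK3B-DT: tctggccagtcaGGACTtcccctccctctc
ZNF566: gagcctgaggcgGGACTccatgaggcctct
PTOV1: cgcgtcttcccaGGACTcccccgcgccgga
GPSM3: ccagggattaggGGACTactgaggctctgg
They lie at chr1:52055142-52055171 on the minus strand, chr3:120095009-120095038 on the plus strand, chr19:36489739-36489768 on the minus strand, chr19:49851000-49851029 on the plus strand and chr6:32192839-32192868 on the minus strand. The first 4 are in genes that no other list names, and GPSM3 is named in another list. Counted from the gene start of the window, the first base of GGACT lay at -83 in GSK3B-DT, -195 in ZNF566 and -213 in GPSM3. These values are negative, so the letters lie before that start and outside a transcript that begins there. In TXNDC12 the value was 45, after the start. In PTOV1 it was 21 or -147, depending on which RefSeq start was used. Among all 35116 RefSeq windows of 300 bases, 25.3% held GGACT on the transcript strand and 44.2% on either strand. Those shares are over whole windows and the 5 sites are over the shorter shared parts, so they are not comparable. A match of these 5 letters is a description and does not mark a methylated adenosine.

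The labelled cell type was compared with marker genes, by which lists named them. The EU list named 9 of 20 prostate and epithelial markers, among them KLK2, KLK3, HOXB13, TMPRSS2, FOXA1, EPCAM and CLDN4, while FOLH1, KRT8, KRT18 and CDH1 had 0 EU peaks. It also named 16 of 25 markers of T and NK cells, including CD3D, CD3E, TRAC and GZMB, with 0 EU peaks in CD2, CD4, CD5, LCK and PRF1. Of 18 markers of other leukocytes and stroma it named 1, PTPRC, which leukocytes including T cells express. In hypoxia replicates 1 and 2 and normoxia replicates 1 and 2, the numbers were 2, 6, 2 and 7 for the prostate markers and 14, 18, 7 and 0 for the T and NK markers. A named gene had a peak past the caller's threshold, which says nothing of how many cells carried the transcript: more cells of a type and more RNA per cell cannot be told apart in bulk RNA. T and NK cell markers are not markers of the labelled prostate cancer line. Normoxia replicate 2 was the only library that named 0 of them. Where these transcripts came from, and their part in the results below, was not tested.

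EU-only sites were spread through the EU list, with median ranks of 2523.5 in genes that no other list names and 2558 in genes named elsewhere, against 2504.5 for the other EU peaks. The deposited p, by which the authors sorted each list, had a median of 0.00011 in genes that no other list names, 0.00012 in genes named elsewhere and 0.00011 in the 2512 EU peaks that shared a base with another list. Of the 504 peaks at the head of the EU list, 144, 91 and 269 fell in these classes, which is 9.17%, 9.46% and 10.7% of each class. The EU-only sites covered 512397 of the 1263972 bases under EU peaks (40.5%). They are not all separate events: 1310 shared their gene and their deposited p with another EU peak, and 867 of the 1503 genes had 1 site only. In 476 genes an EU-only site stood beside a shared EU peak of the same gene.

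Some peaks lay within a few bases of either side of the rule. Just inside it, a 100-base site in FAM83H, a gene known for enamel formation, abutted another list's peak with a gap of 0 bases, and a 251-base site in TOMM5, a subunit of the mitochondrial import complex, lay 10 bases away. Just outside it, 125 EU peaks shared exactly 1 base with another list and 16 more shared 2 to 10. Among them were peaks in ZC3H13, a subunit of the m6A writer complex, ITPKB, an inositol trisphosphate kinase, and ANP32E, a histone chaperone. Of the sites in genes named elsewhere, 103 lay 45 to 55 bases and 74 lay 95 to 105 bases from the nearest peak of another list. When at least 10 shared bases were asked for, an alternative chosen after the data were seen, 2672 sites were EU-only.

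EU-only sites were narrower than the shared EU peaks. The width, counted as bases inside exon blocks, had a median of 169.5 bases (quartiles 101 and 298) in genes that no other list names and 150 bases (101 and 200) in genes named elsewhere. EU peaks that shared a base with another list had a median of 248 bases (150 and 399). Sites of at most 101 bases made up 29.7%, 44.4% and 19.2% of the 3 classes, and sites of at least 400 bases made up 11.1%, 4.26% and 23.9%. The order in genes named elsewhere, then in genes not named elsewhere, then shared peaks held at every step of 50 bases from 100 to 1000. Width bears on the rule itself, since a wider peak has more bases that can be shared.

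**Figure D1:**
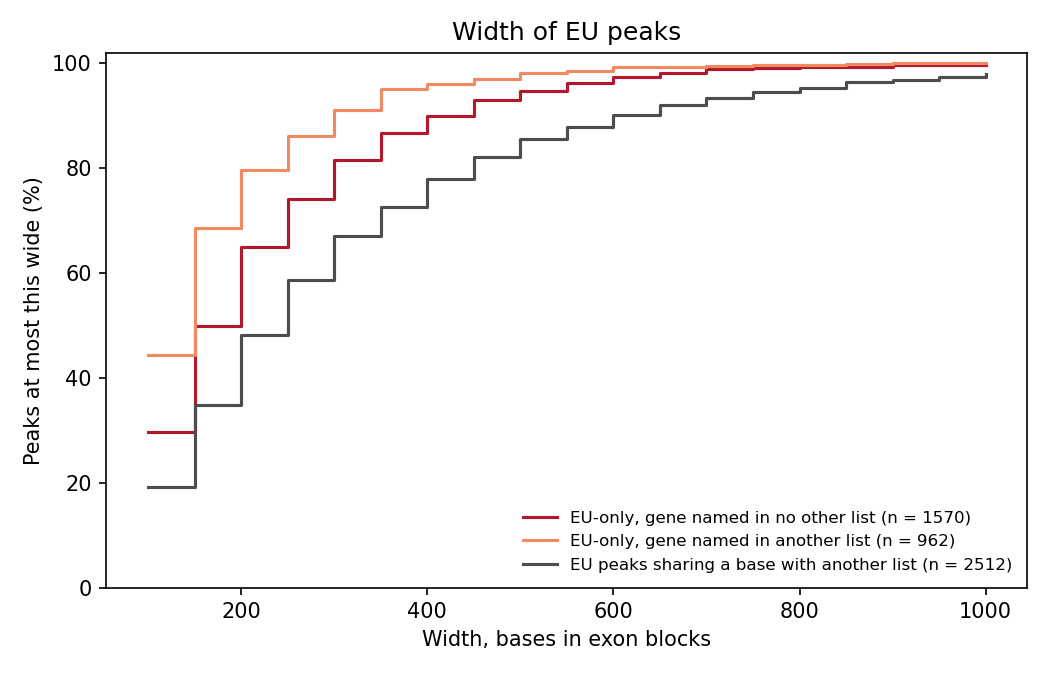
Cumulative share of EU peaks (vertical axis, percent) by width in bases inside exon blocks (horizontal axis), as 1 step line for each class, in steps of 50 bases that include peaks 1 base wider: EU-only sites in genes that no other list names (1570), EU-only sites in genes named in another list (962) and EU peaks sharing a base with another list (2512). The line of the genes named in another list lies highest, with 44.4% of its sites at 101 bases or less.

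Some EU-only sites were long single blocks. The widest single block was in YOD1, which encodes a deubiquitinase, with 1245 bases at chr1:207048428-207049672 and a deposited p of 7.1e-07. SENP5, a SUMO protease, followed with 1199 bases at chr3:196885232-196886430, and MUL1, a mitochondrial ubiquitin ligase, with 1095 bases at chr1:20500095-20501189. No other list named any of these 3 genes, and each had this 1 EU peak. They lay 25793, 54823 and 151269 bases from the nearest peak of another list on their strand.

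Sites that skipped an intron were a minority. A peak of at least 2 blocks is given by the authors' file as lying on joined exons, and 403 EU-only sites had one (15.9%, interval 14.5 to 17.4). They were 219 sites (13.9%, 12.3 to 15.8) in genes that no other list names and 184 sites (19.1%, 16.7 to 21.8) in genes named elsewhere. Among shared EU peaks there were 597 (23.8%, 22.1 to 25.5). The largest block number was 5 and 4 in the EU-only classes and 11 among shared peaks. The 5-block site was in ENO1, the glycolytic enzyme enolase, with 644 bases spread over chr1:8865377-8870282. ENO1 had 4 EU peaks, all EU-only, of 1, 4, 5 and 3 blocks, and reads of ENO1 may be split with its near-identical processed copies. COX16, a factor for assembly of cytochrome c oxidase, and CHTF8, which works in sister chromatid cohesion, each had a site of 4 blocks.

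Along the gene, EU-only sites lay mostly toward the 3′ end. On a scale from 0 at the 5′ end to 1 at the 3′ end of the RefSeq gene span, introns included, the median was 0.840 (95% interval 0.822 to 0.853) in genes that no other list names and 0.794 (0.771 to 0.817) in genes named elsewhere. Shared EU peaks had a median of 0.762 (0.746 to 0.783). The stretch from 0.9 to 1 held 37.5%, 34.5% and 31.9% of these classes, and the stretch from 0 to 0.1 held 9.13%, 9.74% and 8.27%. In bases the order differed, since 16.7%, 12.4% and 16.8% of these classes lay within 1000 bases of the gene's end, and the sites in genes named elsewhere had the smallest share. Median gene spans were 27268.5, 28002 and 25480 bases. The scale is one of genomic distance, so it does not separate coding sequence from the 3′ untranslated region.

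**Figure D2:**
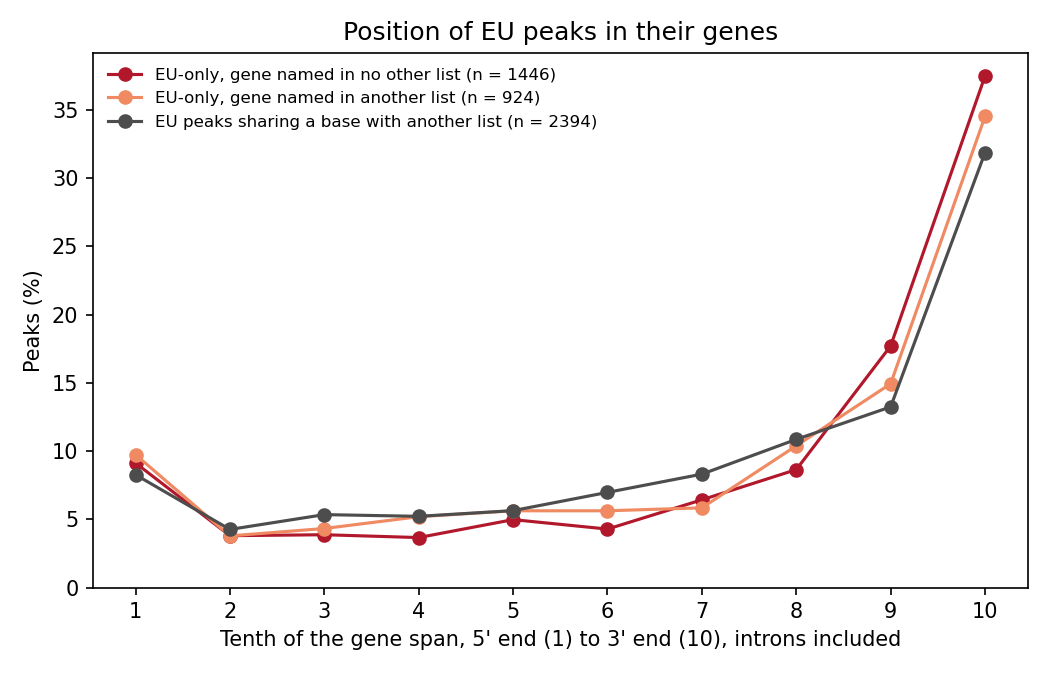
Share of EU peaks (vertical axis, percent) in each of 10 equal parts of the gene span from the 5′ end (1) to the 3′ end (10), introns included, for peaks matched to RefSeq: 1446 EU-only sites in genes that no other list names, 924 in genes named in another list and 2394 peaks sharing a base with another list. All 3 lines are highest in part 10, at 37.5%, 34.5% and 31.9%.

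Among RefSeq-matched genes that no other list names, the smallest deposited p were at sites in HNRNPA0, DUSP1 and PLK2. HNRNPA0, an RNA-binding protein, had 3 EU peaks with a deposited p of 2.8e-10, at chr5:137752930-137753179, chr5:137753429-137753628 and chr5:137753927-137754177, all within the first 0.15 of its span. DUSP1, a phosphatase that switches off MAP kinases, had a 395-base site at chr5:172768582-172768976 with a deposited p of 1.1e-09, at 0.78 of the span. PLK2, a polo-like kinase induced by stress and serum, had a site of 597 bases in 2 blocks at chr5:58454181-58454913 with a deposited p of 2.9e-09, at 0.92. The sites of these 3 genes lay at least 185819 bases from any peak of another list on their strand. These sites differed in their place within the gene: those of HNRNPA0 were at its start and that of PLK2 at its end.

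The other leading genes of this class were CIRBP-AS1, TSSK6, GRIN3A, UFSP1, THAP12, SOWAHC and ZNF334, with smallest p from 7.6e-09 to 5.5e-08. GRIN3A, a subunit of NMDA-type glutamate receptors, had 8 EU peaks and all were EU-only. Its 3 sites of smallest p, 2.5e-08, lay within chr9:101737534-101738480, with their midpoints 316 to 963 bases from the gene start, and another lay at 0.98 of a span of 169296 bases. TSSK6, a kinase known from testis, had 3 sites at chr19:19515050-19515685, of which the widest contains the other two. UFSP1, a protease of the ubiquitin-like protein UFM1, had 2 sites. CIRBP-AS1 is named as antisense to CIRBP, and no source used here says how strand was counted, so its gene is uncertain.

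The largest numbers of sites in this class were 8 in GRIN3A, 8 in ANAPC2 and 7 in several genes. ANAPC2, the cullin subunit of the anaphase-promoting complex, had 4 of its 8 sites in the first 0.10 of its span and 3 from 0.85 on. HMGB1, an abundant chromatin protein with many processed copies in the genome, had 7, of which 5 were at 0.96 or beyond. NRDE2, a nuclear RNA surveillance factor, had 7 from 0.43 to 0.96. SETD1B, a histone H3 lysine 4 methyltransferase, had 7 from 0.47 to 0.98, of which 3 had 2 blocks. Each of these genes had EU peaks in EU-only sites alone, and 0 peaks in the other 6 lists.

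Distances to the other lists' peaks follow in part from the split, so they are a description. A gene named elsewhere has such a peak under its name. A gene named nowhere else has none under its name, though a peak under another name may lie in it. In genes named elsewhere, the nearest peak of another list on the same strand was a median of 447 bases away, and 186 sites (19.3%) were within 100 bases, 632 (65.7%) within 1000 and 868 (90.2%) within 10000. In genes that no other list names, the median was 230412 bases, and 13 sites were within 1000. Of 785 such genes matched to RefSeq, 8 (1.02%) had a peak of another list under another name inside their span. The 95 genes without a RefSeq match, with 124 sites, could not be looked up in this way. On the opposite strand, 35 EU-only sites shared a base with another list.

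Within those genes the EU-only sites were found on either side of the other lists' peaks. Of 962 sites, 269 (28.0%, interval 25.1 to 30.9) lay 5′ of all of them, 344 (35.8%) lay 3′ of all, and 349 (36.3%) lay between. The median gap was 747, 695.5 and 199 bases. MALAT1 is an abundant nuclear long non-coding RNA. Of its 3 EU peaks, 1 was EU-only, at chr11:65499355-65499600, 300 bases 5′ of the nearest other peak, with p listed as 0. MALAT1 had 2 peaks in each hypoxia replicate, 1 in each normoxia replicate, 1 in the hypoxia and 3 in the normoxia condition list.

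Some genes named elsewhere had EU peaks that were all EU-only, several of them close to a peak of another list. SNRNP200, the helicase of the U5 snRNP in the spliceosome, had 9 EU peaks, all EU-only, against 2 peaks in hypoxia replicate 1 and 0 in the other 5 lists. GLG1, a Golgi glycoprotein, had 6, all EU-only, against 5 peaks in hypoxia replicate 1 and 0 elsewhere. The SNRNP200 sites lay 1155 to 6380 bases from the nearest peak of another list, and those of GLG1 49 to 8560. ZBTB42, a zinc finger protein of the BTB family, had 6 EU-only sites against 3 peaks, all in the normoxia condition list. The ZBTB42 sites lay 49 to 399 bases from the nearest peak of another list. Some of them overlap each other, and some had a deposited p of 0.01. CTBP1-AS2 had 6 EU-only sites in 6 EU peaks, against 1 peak in normoxia replicate 2 and 1 in the normoxia condition list. Its strand is uncertain as for the antisense RNA above. Its sites lay 21 to 1024 bases from the nearest peak of another list, and some overlap each other. In all, 152 genes named elsewhere had no EU peak that shared a base with another list.

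EPPK1 and TMEM184A had both EU-only sites and shared EU peaks. EPPK1, the cytoskeletal linker epiplakin, had 27 EU peaks, of which 6 were EU-only and lay 29 to 330 bases from another list's peak. Its peaks numbered 4 and 21 in hypoxia replicates 1 and 2, 0 and 16 in normoxia replicates 1 and 2, 17 in the hypoxia and 16 in the normoxia condition list. The EU-only sites of EPPK1 all lay between those peaks, at 0.51 to 0.56 of the span, and some overlap each other. TMEM184A had 11 EU peaks, of which 6 were EU-only and lay 3′ of the others, at 0.87 to 0.97, and some overlap. Further genes of this class with small p were MDC1-AS1, ATXN1L, MEX3D, MSL2, KBTBD7, MARS2 and PCBP1, from 7.9e-12 to 3.7e-08. PCBP1, a poly(C)-binding protein, had its site 49 bases from another peak, and MARS2, the mitochondrial methionyl-tRNA synthetase, 890 bases.

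The next comparison asked whether the genes of EU-only sites were named in hypoxia or in normoxia lists. Hypoxia replicates 1 and 2 named the gene of 10.7% and 18.3% of the 2532 sites, and normoxia replicates 1 and 2 named that of 0.948% and 11.7%. The hypoxia condition list named 23.2% and the normoxia condition list 14.1%. The ranges of the 2 conditions overlap: normoxia replicate 2 lies above hypoxia replicate 1. Hypoxia libraries averaged 14.5% ± 5.36 (SD, n = 2). Normoxia libraries averaged 6.34% ± 7.62 (SD, n = 2). The difference of 8.20 percentage points gave p = 0.667 in an exact two-sided permutation test, in which 2 libraries against 2 cannot go below 0.333. The rule that chose the sites used these same libraries, so the shares are a description and the test decides nothing about the conditions. Cut to its 212 peaks of smallest p, each library named 0.987%, 0.711%, 0.948% and 1.5% of the sites' genes, in the same order, and the difference turned to -0.375.

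**Figure D3:**
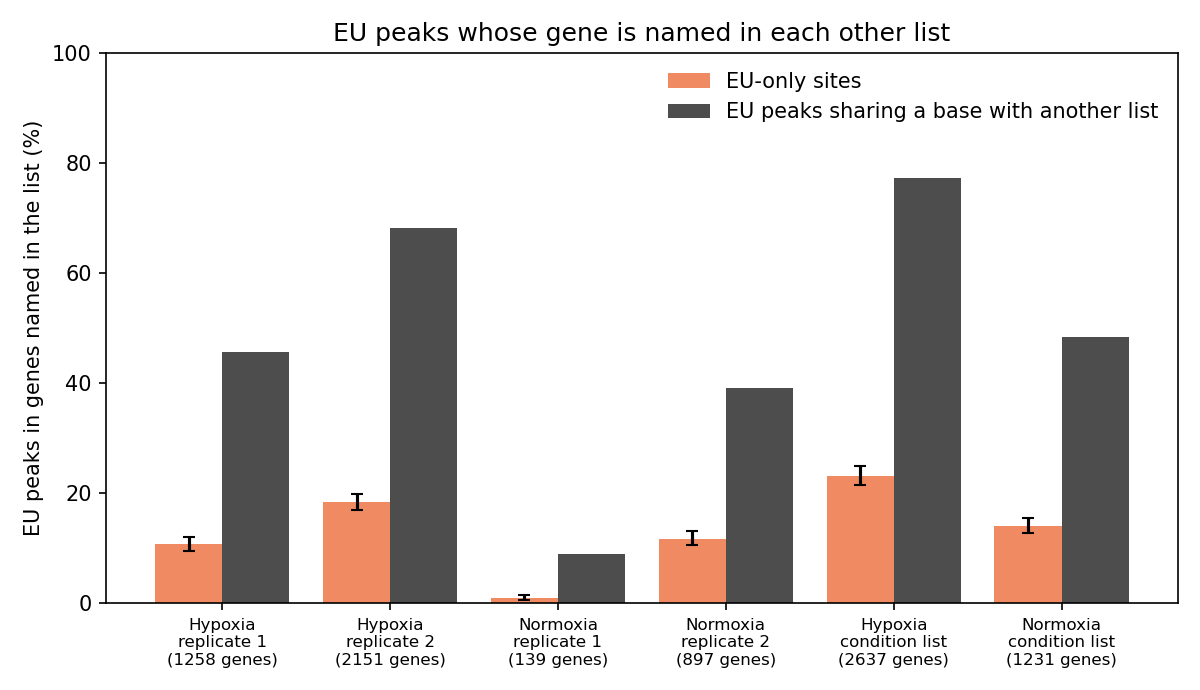
Share of EU peaks whose gene is named in each of the 6 other lists (vertical axis, percent), with the number of genes each list names under its label. Light bars are the 2532 EU-only sites, with exact binomial 95% intervals as error bars, and dark bars the 2512 EU peaks sharing a base with another list; light bars run from 0.948% in normoxia replicate 1 to 23.2% in the hypoxia condition list.

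Counted by condition, 523 of the 962 sites in genes named elsewhere (54.4%, 333 genes) were in genes of hypoxia lists only. There were 190 sites (19.8%, 124 genes) in genes of normoxia lists only and 249 (25.9%, 167 genes) in genes of both. Of the shared EU peaks, 43.2% were in genes of hypoxia lists only, 12.1% in genes of normoxia lists only and 44.3% in genes of both. The order of the hypoxia-only and normoxia-only shares was thus the same in both classes, and the share in genes of both was lower among EU-only sites; a peak that shares a base with several lists is in a gene of several lists, so this difference was not tested. The lists differ in length, with 2879 and 6621 peaks in the hypoxia replicates, 212 and 1563 in the normoxia replicates and 7669 and 2285 in the condition lists. Of the 624 genes, 126 were named in a condition list but in 0 of the 4 libraries, 328 in 1 library, 137 in 2, 29 in 3 and 4 in all 4. The rule bears on these counts, since it removed EU peaks that shared a base with a library. The same counts for genes of shared EU peaks are not given here, so they are a description.

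To set the EU library beside the others, each of the 5 libraries was given the same rule against the other 4, without the condition lists. Private sites, those that share no base with another library, were 2935 in EU (58.2%), 1241 and 4255 in hypoxia replicates 1 and 2 (43.1% and 64.3%) and 50 and 585 in normoxia replicates 1 and 2 (23.6% and 37.4%). EU thus lay within the range of the other 4. The median width of private sites was 151 bases in EU and 101, 150, 101 and 101 in the others in that order, so EU lay above all 4 but by 1 base from hypoxia replicate 2. Sites of at least 2 blocks were 16.1% in EU and 34.2%, 37.4%, 30% and 10.9% in the others. The median position was 0.816 in EU and 0.735, 0.742, 0.448 and 0.783 in the others. With each library cut to its 212 peaks of smallest p, the median width was 201 bases in EU and 200, 201, 150 and 200 in the others. EU thus tied with hypoxia replicate 2 as the widest. The median position was then 0.632 in EU and 0.591, 0.690, 0.618 and 0.764 in the others, so EU was not the highest. No test could separate EU here: with 1 library against 4 the smallest exact permutation p is 0.2, and the rule itself used the overlap. The values are a description.

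**Figure D4:**
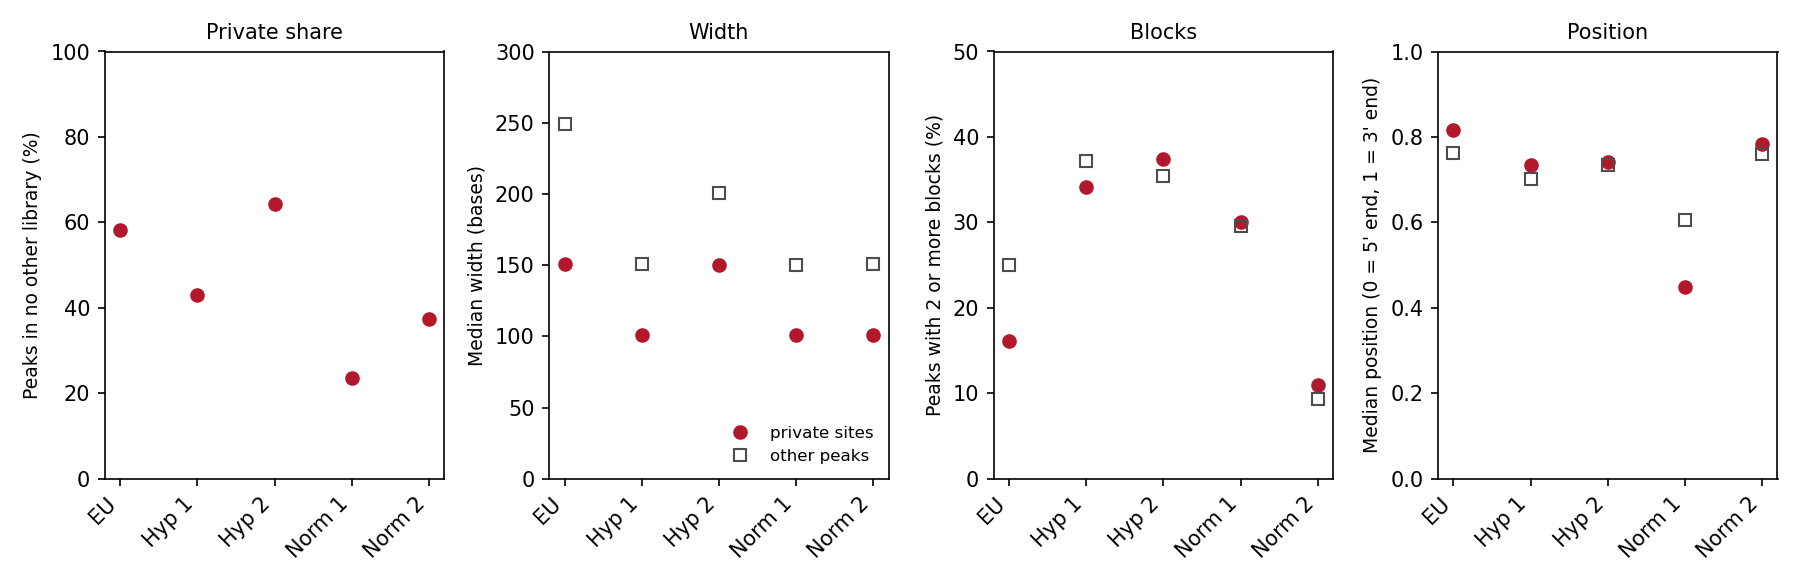
Private sites of each library under the same rule, in 4 panels: share of the library's peaks (percent), median width (bases), share with at least 2 blocks (percent) and median position in the gene (0 at the 5′ end, 1 at the 3′ end). Filled circles are private sites and open squares the library's other peaks; the EU private share, 58.2%, lies below that of hypoxia replicate 2 at 64.3%.

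Gene groups differed in how many of their members had EU-only sites, read against 62.9% of all EU genes with such a site and 36.8% named in no other list. Of 166 ZNF genes in the EU list, which here include ZFP-named genes and HKR1 and encode zinc finger proteins, most of them DNA-binding repressors, 148 (89.2%) had an EU-only site and 101 (60.8%) were named nowhere else. Both shares lay above those of all EU genes. The 148 genes held 305 sites, 12% of all EU-only sites, against 63 shared EU peaks in the same genes. These genes were picked for having an EU-only site, which favours such sites in this count, and shared peaks of the other ZNF genes are left out. Of the sites 287 (94.1%) were single blocks, 164 (53.8%) lay on chromosome 19, and their median position was 0.859. The same values for shared EU peaks of ZNF genes are not given here. These are therefore a description and not traits particular to EU-only sites. Leading members were ZNF334, with 2 sites and a smallest p of 5.5e-08, ZNF839, with 3 sites and 6.5e-08, and ZNF148, with 3 EU-only sites in 5 EU peaks and 7.6e-08. ZNF516 had 7 sites, all EU-only, from 0.39 to 0.97 of its span, and ZNF865 had 5, from 0.74 to 0.99; they were picked after their values were seen. Some ZNF genes have closely similar copies, among which reads may have been split, which was not tested. Without ZNF genes, 2227 EU-only sites remained, with 60.5% in genes named nowhere else, 17.3% with at least 2 blocks and a median position of 0.816.

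**Figure D5:**
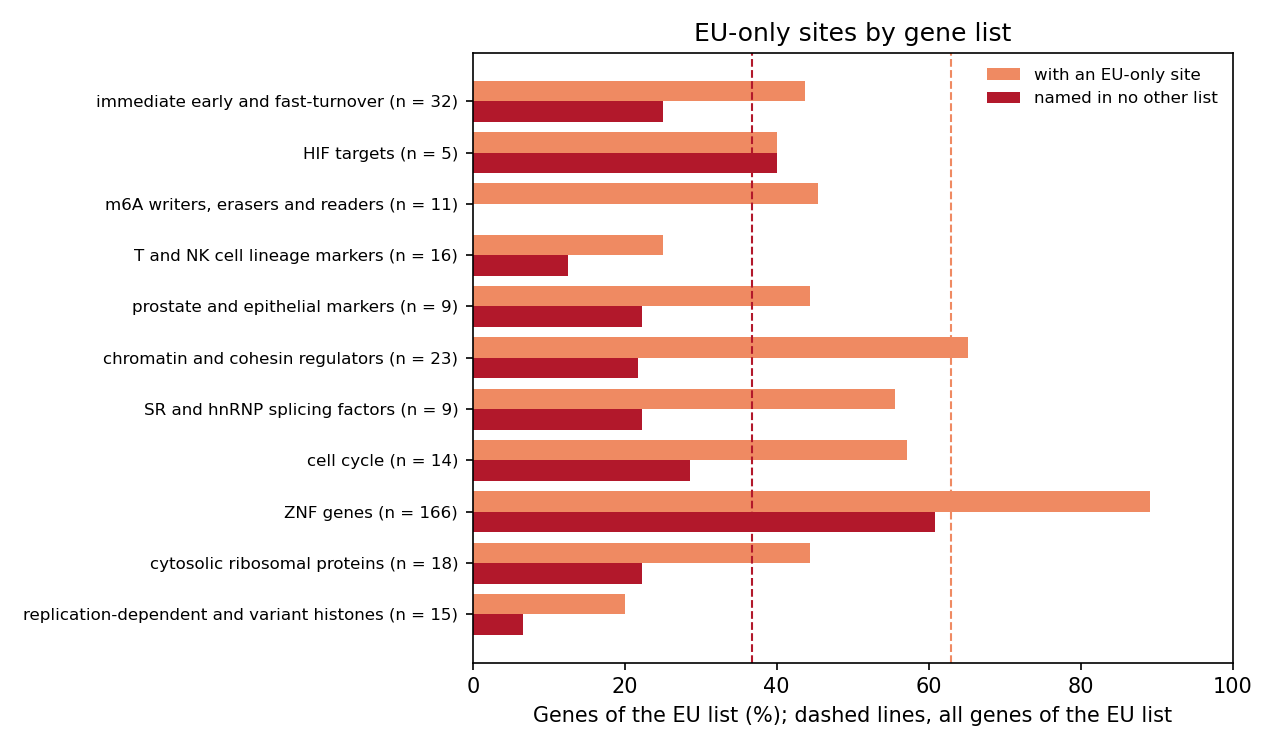
Share of each list's genes in the EU list (horizontal axis, percent; n is the number of genes named there) that had an EU-only site (light bars) or were named in no other list (dark bars), for lists with at least 5 genes in the EU list. Dashed lines mark all genes of the EU list, 62.9% and 36.8%; ZNF genes reach 89.2% and 60.8%.

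Immediate early and fast-turnover genes, which are switched on within minutes and whose RNA decays soon, included several genes named in the EU list alone. Of 32 in the EU list, 14 (43.8%) had an EU-only site and 8 (25%) were named nowhere else, both shares below those of all EU genes. The 8 were DUSP1 and PLK2, described above, EGR1, KLF4, NR4A1, GADD45A, TNFAIP3 and HES1. EGR1, a zinc finger transcription factor of the first response to growth signals, had 2 sites of 499 and 399 bases at 0.64 and 0.44 of its span, with p of 0.00035 and 0.00051. KLF4, a transcription factor of epithelial cells and stem cells, had a 248-base site with p of 0.006. NR4A1, an orphan nuclear receptor, had a 351-base site with p of 0.00078, and HES1, a repressor downstream of Notch, a 246-base site with p of 1.3e-05. TNFAIP3, an inhibitor of NF-kappaB signalling, had a 496-base site at 0.91, and GADD45A, a stress gene of the DNA damage response, one of 247 bases at 0.85. SOCS1, a brake on cytokine signalling, was of the other class: 1 of its 2 EU peaks was EU-only and lay 48 bases from the nearest other peak. Both hypoxia replicates and the hypoxia condition list had 3 SOCS1 peaks each, and the normoxia lists had 0.

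Chromatin and cohesin regulators were close to the whole list, with 15 of 23 (65.2%) having an EU-only site, but 5 (21.7%) were named nowhere else. The 5 were SETD1B, CHD2, ARID2, TET3 and ASXL2. CHD2, a chromatin remodeller, had a 750-base site at 0.97 of its span with p of 6e-06. TET3, which oxidises methylated cytosine in DNA, had 6 sites, and ASXL2, a Polycomb-associated protein, 4 sites that lie in a row between 0.93 and 0.94. ARID2, a subunit of the PBAF remodelling complex, had 2 sites. KDM6A, a histone H3 lysine 27 demethylase, had 1 of 3 EU peaks EU-only, and it was named in normoxia replicate 2 and both condition lists with 2 peaks each.

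Those genes of the m6A system that the EU list named were all named in another list too. Of the 24 genes looked for, the other lists named 12. Of 11 in the EU list, 5 had EU-only sites (45.5%) and 0 were named nowhere else. They were the writer subunits ZC3H13, KIAA1429 (now VIRMA), RBM15 and WTAP and the reader YTHDF3. ZC3H13 had 9 EU peaks, of which 3 were EU-only. It had 6 peaks in hypoxia replicate 2, 2 in normoxia replicate 2 and 5 in the hypoxia condition list. KIAA1429 had 4 EU peaks, 3 of them EU-only, and 1 peak in the hypoxia condition list. WTAP had 3 EU peaks and 1 EU-only site of 450 bases at 0.97 of the gene, 6695 bases 3′ of the nearest of the 2 peaks of hypoxia replicate 1. RBM15 had 2 EU-only sites of 150 bases at 0.03 and 0.07 of the gene, 5′ of the other lists' peaks. Of its 7 EU peaks, the remaining ones shared bases with another list.

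HIF targets, genes that the hypoxia-inducible factors switch on, were few. Of 29, the EU list named 5, of which 2 had EU-only sites and were named nowhere else (40%), ENO1 with 4 sites and SLC2A1, the glucose transporter GLUT1, with 1. The SLC2A1 site was 100 bases wide with p of 0.0023. By the rule, neither gene had a peak in a hypoxia or normoxia list.

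Of the 16 T and NK markers in the EU list, 4 had EU-only sites (25%), a share below that of all EU genes, and 2 were named nowhere else (12.5%). CD8B, a chain of the T cell co-receptor CD8, had 2 sites at 0.08 and at the start of its span, with p of 2.3e-06. CD7, a surface protein of T and NK cells, had 2, with p of 0.00019 and 0.00051. CD8A had 1 of 4 EU peaks EU-only and CD3G 1 of 2. Most T and NK markers of the EU list thus had all of their EU peaks on bases shared with another list.

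Of 9 prostate and epithelial markers in the EU list, 4 had EU-only sites (44.4%) and 2 were named nowhere else (22.2%). KLK3, which encodes prostate-specific antigen, had 3 sites with p of 2e-05, at chr19:50859866-50860016, chr19:50860116-50860265 and chr19:50860415-50860614. They lay at 0.86, 0.90 and 0.96 of the gene, and 0 KLK3 peaks were called in the other 6 lists. EPCAM, an epithelial adhesion molecule, had a 100-base site with p of 0.0003 that lay just before its RefSeq start. CLDN4, a tight junction protein, had 2 of 4 EU peaks EU-only. Their midpoints were at -1656 and -1057 bases from its RefSeq start, so both lay before the gene span.

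SR and hnRNP splicing factors had EU-only sites in 5 of 9 (55.6%) and were named nowhere else in 2 (22.2%), HNRNPA0 and SRSF4. SRSF4, an SR protein, had 3 sites from 0.96 to 0.98 of its span, with p of 8.9e-05. HNRNPR, an RNA-binding protein, had 1 EU-only site of 5 EU peaks, 99 bases from the nearest other peak. Hypoxia replicates 1 and 2 had 6 and 5 HNRNPR peaks, and the hypoxia condition list had 6. Nuclear long non-coding RNAs had EU-only sites in 2 of 4, MALAT1 and TUG1, and 0 were named nowhere else. TUG1 had 3 EU-only sites in 7 EU peaks, and these 3 lay between the peaks of other lists. Of those peaks, normoxia replicate 2 had 6, the normoxia condition list 5 and hypoxia replicate 1 had 1.

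Cell cycle genes had EU-only sites in 8 of 14 (57.1%), and 4 were named nowhere else (28.6%): E2F2 and E2F3, transcription factors of the G1 to S step, MCM2, a subunit of the replicative helicase, and AURKA, a mitotic kinase. E2F2 had 4 sites with p of 4e-06, from 0.01 to 0.83 of its span, and 2 of them had 2 or more blocks. MCM6, another helicase subunit, had 1 of 7 EU peaks EU-only, 99 bases 3′ of the nearest other peak, with 4 peaks in hypoxia replicate 2 and 5 in the hypoxia condition list. MCM7 had its only EU peak in this class, 1004 bases from the nearest of the 3 peaks in each of those lists.

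Ribosomal protein and histone genes, many of which have near-identical copies, had few EU-only sites. Of 18 cytosolic ribosomal protein genes in the EU list, 8 (44.4%) had an EU-only site and 4 (22.2%) were named nowhere else, RPL10, RPL13, RPS14 and RPS19, with a median width of 100 bases over 10 sites. RPS2 had its single EU peak EU-only, with p of 1.1e-07. Of 15 histone genes, 3 (20%) had an EU-only site, HIST1H2BG, HIST1H2BD and HIST1H1PS1, a pseudogene and the 1 not named elsewhere (6.67%). In all of these, reads may be split among near-identical copies, and the site is given under the name the list carries. The files named no mitochondrial mRNA.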

How the data were processed

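The samples were 5 MeRIP libraries and 5 inputs of V16A cells, and the analysis began from 7 deposited peak lists, 1 per MeRIP library and 1 per condition. The submitters' processing notes name STAR and hg38, with no version; the peak caller, threshold, use of inputs, annotation and strand handling are not given in the sources used here, nor is how the condition lists were made. The lists have 12 columns and no header. Column 5 was taken as the p-value the authors deposited for a peak; it ascends and does not exceed 0.013, so its meaning rests on its values. The number of exon blocks and other block columns were used as deposited. The lists hold called peaks past a threshold, and reads and inputs were not used here. Depth is therefore unknown, and the absence of a peak does not show the absence of the mark. Groups came from sample titles.

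Overlap meant at least 1 base shared between exon blocks on 1 strand. Gene names were matched to RefSeq (GRCh38.p14) by symbol or older symbol within 10 kb, for 92.1% of EU names and 93.6% of EU-only sites; positions use the midpoint of block bases. Libraries were compared with exact permutation tests, medians with order-statistic and shares with exact binomial 95% intervals, which cover counting error only. Sites of 1 gene share their source, so intervals over sites are too narrow. Python 3.11.15, numpy 2.4.6 and scipy 1.17.1 were used, and the overlap code was tested on simulated data.

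The members, the 14 gene lists and the alternatives were chosen with earlier results of these data known. The ZNF list holds the genes of the 7 lists named ZNF or ZFP with a number, and HKR1, without antisense and readthrough names. The named genes were, for each class, the 10 with the smallest p and the 5 with the most sites, then the 3 widest single blocks, the 3 sites with most blocks and up to 3 genes of each list by p. Other members of the lists that are named were picked after their values were seen. Replicate numbers did not pair the libraries (correlation of the replicates' differences -0.105 over 3226 genes). Some members of the marker lists count in the totals and are not reported here by name.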

Additional observations from a re-analysis of the deposited data

How the results depend on the processing

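With the 50% of each list of smallest p kept, the 2532 EU-only sites became 1679, the share in genes named nowhere else rose from 62.0% to 74.3%, sites with at least 2 blocks from 15.9% to 19.9%, the 5′ share from 28.0% to 35.5% and the ZNF share from 60.8% to 69.8%, and the median position moved from 0.822 to 0.774. The share named nowhere else was 51.2% when under 50% of bases shared still counted as EU-only, 66.9% when peaks within 100 bases counted as shared, 67.6% without condition lists and 58.8% with at least 10 shared bases, which was added after the data were seen. The 5′ share was 24.2% and 31.4% with under 50% of bases shared and without condition lists, and the ZNF share was 69.9% without condition lists. Measured as span from start to end, the median width was 198 bases, and in genes of at least 10 kb the median position was 0.869. The causes were not tested.

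Leaving out each replicate in turn, with its condition's list, gave 2660 to 3438 sites, 63.8% to 72.1% named nowhere else, 14.8% to 18.5% with at least 2 blocks, a position of 0.810 to 0.819, a 5′ share of 27.3% to 34.8% and a ZNF share of 63.9% to 76.5%. The hypoxia minus normoxia difference ran from 2.80 without normoxia replicate 1 to 13.6 without normoxia replicate 2, and was 4.4 without hypoxia replicate 2. With the replicate block it was 8.20, with an exact p of 0.5, the smallest 2 pairs allow, and with crossed numbers p was 1. The excess of the EU private share, 16.1 points, ran from 9.91 without normoxia replicate 1 to 25.1 without hypoxia replicate 2. Both differences reversed when each library was cut to 212 peaks, to -0.375 and -0.472. Counts were called moved beyond 1.5 times, shares and medians outside their 95% interval, and differences between libraries only where the sign turned; by these limits 75 alternative values stayed, 24 moved and 2 reversed. Depth is unknown, so its effect on these counts was not tested.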

Other observations

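EU-only sites in RNAs other than messenger RNA were few. In genes that no other list names, 37 sites (2.36%) were in 23 long non-coding RNA genes, 29 (1.85%) in 17 pseudogenes and 112 (7.13%) in 88 genes that carry a clone name. In genes named elsewhere the numbers were 24 sites (2.49%), 2 (0.208%) and 38 (3.95%), and among shared EU peaks 27 (1.07%), 13 (0.518%) and 114 (4.54%). Names ending in -AS, for RNAs antisense to a gene, had 22 sites in genes that no other list names, 18 in genes named elsewhere and 11 among shared peaks.

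The minus strand held 53.0% of EU-only sites in genes that no other list names, 70.5% in genes named elsewhere and 66.4% of shared EU peaks. Among RefSeq gene windows 49.3% are on the minus strand, and the peaks of the 7 lists were on it in 63.0% to 75.9%. Chromosome 19 held 12.9% of EU-only sites in genes that no other list names, 9.88% in genes named elsewhere and 8.84% of shared EU peaks.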
